A study of Homo sapiens with 1 sample.

Results

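Promoters rich in adenine and thymine are a minority of human promoters. Most human genes start within a CpG island, a stretch with many G, C and CpG dinucleotides that tends to be unmethylated and free of stable nucleosomes, and these genes include most of those used by every cell. Promoters without an island more often belong to genes used in 1 tissue or after a stimulus, and open when transcription factors bind there. Chromatin accessibility at such promoters was examined by ATAC-seq, which uses a hyperactive transposase to tag DNA that is not wrapped in nucleosomes, in the 786-O cell line. These cells were established from a human clear cell renal cell carcinoma, a tumour of the kidney tubule, and carried an empty vector. The data were the peak list of 1 library with no replicate, so there was no comparison between groups and no test.

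A canonical promoter was taken as the 1 kb before and the 100 bp after the transcription start site (TSS) of the canonical transcript in GENCODE release 44 on hg38. Of 19111 canonical promoters of protein-coding genes on chromosomes 1 to 22, 1927 (10.1%) had a GC content below 42% and are called GC-poor. A promoter was called open when it held the summit of a listed peak, that is, the position of its highest pileup of fragments. The members were selected on that measured summit and on their GC content, so neither is a result. There were 276 open GC-poor promoters, or 14.3% of the GC-poor promoters (exact Clopper-Pearson 95% interval, 12.8 to 16.0), beside 52.9% of canonical promoters of any GC content and 57.3% (56.5 to 58.0) of those with a GC content of 42% or more. They made up 2.73% of all open promoters and lay in 269 distinct peaks, since 14 members shared their peak with another member. The count depended on the definition, and was 114 when the GC content was taken over the 300 bp around the TSS and 981 when the TSS of any transcript counted. The other 1651 GC-poor promoters are called closed, which means only that no summit was listed, because the list held no peak with a pileup under 9.

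The members were divided into 2 kinds by the sequence of their core. In 64 of them the 300 bp core, from 250 bp upstream to 50 bp downstream of the TSS, had a GC content of at least 50% and a ratio of observed to expected CpG of at least 0.6. These are called island-core members, and the other 212, which missed either limit or both, are the non-island members. This division uses sequence only, but it was chosen after the values were seen. The promoters of API5 and SLC7A11 show the contrast. Over the whole promoter both had a low GC content, 31.9% for API5, which encodes an inhibitor of apoptosis, and 32.1% for SLC7A11, which encodes the cystine transporter used for glutathione synthesis. The windows below run from 280 bp upstream of the TSS through the first 20 transcribed bases, in the first exon, with each CG in capitals.
API5, chr11:43311716-43312015, plus strand: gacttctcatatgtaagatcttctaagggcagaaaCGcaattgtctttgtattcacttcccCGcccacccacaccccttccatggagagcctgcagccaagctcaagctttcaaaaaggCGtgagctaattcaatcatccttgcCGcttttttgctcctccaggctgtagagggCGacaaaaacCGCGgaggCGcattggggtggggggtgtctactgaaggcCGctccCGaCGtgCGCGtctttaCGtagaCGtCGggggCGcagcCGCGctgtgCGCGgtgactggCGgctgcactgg
SLC7A11, chr4:138242330-138242629, minus strand: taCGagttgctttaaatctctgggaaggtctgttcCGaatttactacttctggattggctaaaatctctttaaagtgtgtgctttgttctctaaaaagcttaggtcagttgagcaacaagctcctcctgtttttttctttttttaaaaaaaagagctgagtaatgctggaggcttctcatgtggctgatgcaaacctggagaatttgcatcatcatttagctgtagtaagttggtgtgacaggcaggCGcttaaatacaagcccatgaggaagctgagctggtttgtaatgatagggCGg
Over these 300 bp the GC content was 57.7% with 22 CG for API5 and 41.3% with 4 CG for SLC7A11. Both promoters were open, with a fold enrichment at the summit of 39.2 and 40.7.

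2 further island cores are shown for the genes at the top of the list. FH encodes fumarate hydratase of the citric acid cycle, whose inherited loss predisposes to kidney cancer, and MRPS30 encodes a protein of the mitochondrial ribosome. Capitals mark the CCAAT box (CCAAT, or ATTGG on the other strand) and, in FH, the SP/KLF motif (GGGGCGGG, or CCCGCCCC).
FH, chr1:241519736-241519905, minus strand: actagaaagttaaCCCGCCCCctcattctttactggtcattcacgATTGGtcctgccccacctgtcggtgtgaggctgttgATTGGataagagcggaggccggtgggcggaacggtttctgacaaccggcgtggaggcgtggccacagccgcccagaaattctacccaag
MRPS30, chr5:44808767-44808966, plus strand: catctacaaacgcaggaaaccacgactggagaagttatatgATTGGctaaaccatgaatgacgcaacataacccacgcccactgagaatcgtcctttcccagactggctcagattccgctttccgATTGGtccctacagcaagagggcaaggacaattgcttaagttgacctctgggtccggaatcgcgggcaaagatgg
The CCAAT boxes began 105 and 69 bp upstream of the TSS in FH and 139 and 55 bp upstream in MRPS30.

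Some non-island members are shown for their motifs, among them secreted and surface proteins of inflammation and interferon-stimulated genes. These examples do not stand for all 212, which also include ARMC1, SEM1 and CWC22. The CpG ratio of the core in the 212 ran from 0 to 1.12, with a median of 0.323. In MMP7, which encodes a matrix metalloproteinase, and CXCL8, which encodes the neutrophil chemoattractant interleukin-8, capitals mark the TATA box (TATAAA) and the AP-1 motif (TGACTCA or TGAGTCA). AP-1 is the FOS and JUN family of stress- and growth-responsive factors.
MMP7, chr11:102530728-102530867, minus strand: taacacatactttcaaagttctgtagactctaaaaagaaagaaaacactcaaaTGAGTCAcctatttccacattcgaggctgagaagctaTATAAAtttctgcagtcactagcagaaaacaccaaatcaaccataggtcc
CXCL8, chr4:73740429-73740588, plus strand: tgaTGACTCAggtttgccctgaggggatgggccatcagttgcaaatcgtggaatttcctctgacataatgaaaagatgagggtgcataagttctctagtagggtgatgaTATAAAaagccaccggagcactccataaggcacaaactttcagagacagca
The TATA box began 30 and 31 bp upstream of the TSS, respectively, and the AP-1 motif 67 and 137 bp upstream. DHRS9, which encodes a retinol dehydrogenase, and F2RL2, which encodes a thrombin receptor, carried the AP-1 motif without a TATA box.
DHRS9, chr2:169069463-169069582, plus strand: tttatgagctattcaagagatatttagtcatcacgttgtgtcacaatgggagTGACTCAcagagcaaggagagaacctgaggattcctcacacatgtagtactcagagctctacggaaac
F2RL2, chr5:76623384-76623503, minus strand: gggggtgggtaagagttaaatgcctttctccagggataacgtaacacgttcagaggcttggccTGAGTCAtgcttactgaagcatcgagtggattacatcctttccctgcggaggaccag
In IFIT2 and IFI44, which are induced by interferon, capitals mark the core of the interferon-stimulated response element (ISRE), which IRF and STAT factors bind.
IFIT2, chr10:89301926-89302065, plus strand: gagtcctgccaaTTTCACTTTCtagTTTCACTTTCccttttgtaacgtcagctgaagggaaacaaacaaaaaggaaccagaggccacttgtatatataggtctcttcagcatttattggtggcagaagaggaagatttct
IFI44, chr1:78649711-78649850, plus strand: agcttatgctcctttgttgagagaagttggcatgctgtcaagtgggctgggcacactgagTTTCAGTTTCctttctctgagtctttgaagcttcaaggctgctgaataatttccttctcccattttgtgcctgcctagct
IFIT2 had such a core 108 and again 95 bp upstream of the TSS, and IFI44 had 1 at 60 bp upstream.

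The share of open promoters was higher in each successive class of GC content up to 65% or more. Below 33% GC, 8 of 229 promoters were open (3.49%; 1.52 to 6.77). The share was 9.23% from 33 to 36%, 13.6% from 36 to 39% and 20.8% (17.9 to 23.9) from 39 to 42%. Just above the threshold it was 31.3%, from 42 to 45%, and it was 62.5% at 65% or more. Neighbouring classes had overlapping intervals below 39% and from 50% upwards, whereas those of the 3 classes from 39 to 50% did not overlap.

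**Figure D1:**
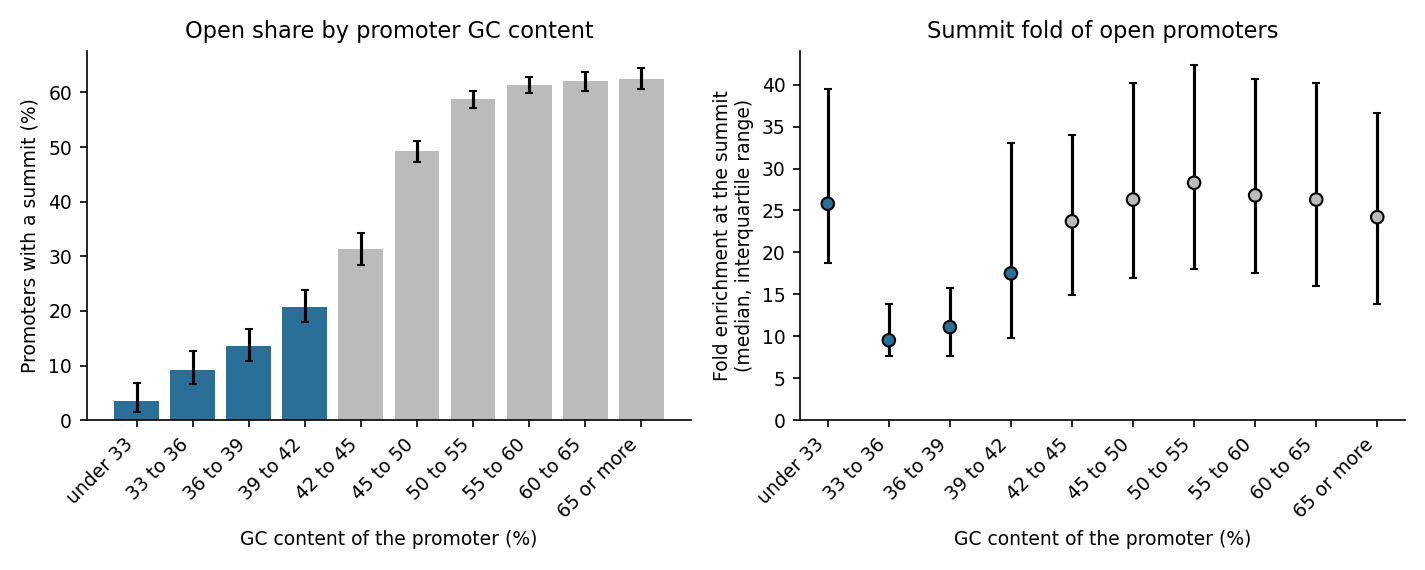
Share of canonical promoters with a summit (left, bars with exact 95% intervals) and fold enrichment at the summit of the open ones (right, median with interquartile range) against the GC content of the promoter in percent, with classes below 42% in blue. The open share climbs from 3.49% in the lowest class to 62.5% in the highest, and the median fold of the 8 open promoters below 33% GC, 25.8, stands above those of the next 3 classes.

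Among GC-poor promoters, those with an island core were open more often. An island core was present in 99 GC-poor promoters, of which 64 were open (64.6%; 54.4 to 74.0). Without an island core 212 of 1828 were open (11.6%; 10.2 to 13.2). For promoters of 42% GC or more the shares were 70.1% with an island core and 22.6% (21.4 to 23.9) without, so the interval for GC-poor promoters overlapped the value of GC-richer ones when both had an island core, and lay below it when both had none. By the CpG ratio of the core, the open share was 5.88% (4.47 to 7.56) below 0.2, 13.2% from 0.2 to 0.4, 20.3% from 0.4 to 0.6, 37.7% from 0.6 to 0.8 and 63.7% (53.6 to 73.0) at 0.8 or more. An island core was present in 23.2% of members, 2.12% of closed GC-poor promoters and 89.3% of open promoters of 42% GC or more.

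The profile of base composition along the promoter follows in part from how the 2 kinds were defined, as a GC-rich core in a promoter below 42% GC requires GC-poor flanks. Island-core members had a mean GC content of 32.0% between 500 and 451 bp upstream of the TSS, and 62.6% in the last 50 bp before the TSS. The non-island members went from 36.1 to 48.0% over the same positions, and closed GC-poor promoters from 35.4 to 42.8%. The summit itself lay in sequence richer than the promoter. The median GC content of the 101 bp around the summit was 61.4% for island-core members, 48.5% for non-island members and 67.3% for open promoters of 42% GC or more.

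**Figure D2:**
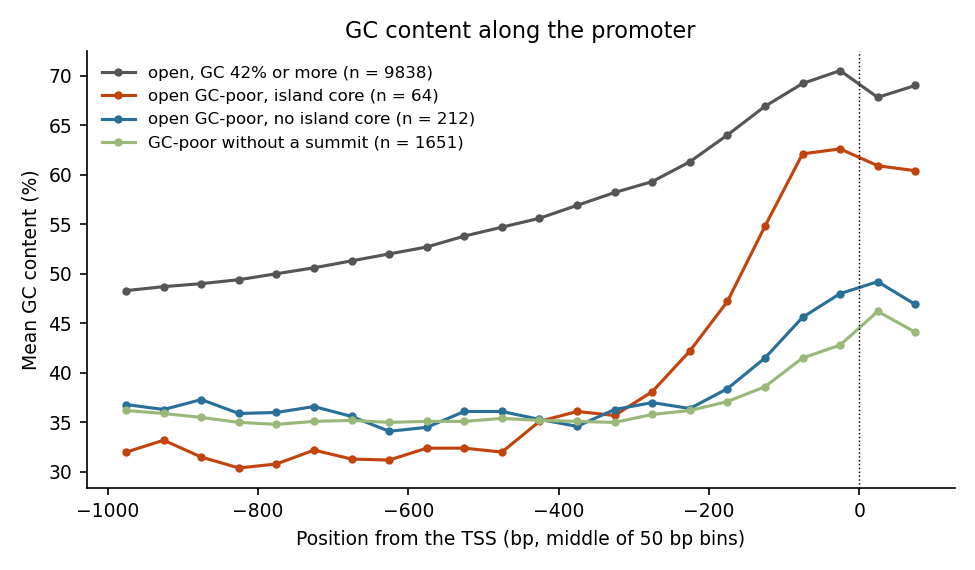
Mean GC content in percent in bins of 50 bp against the position from the TSS in bp, for 64 island-core members, 212 non-island members, 1651 closed GC-poor promoters and 9838 open promoters of 42% GC or more. The island-core line starts lowest, near 32%, and reaches 62.6% before the TSS, whereas the non-island line reaches 48.0%.

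The fold enrichment of a summit over the genome-wide background was lower at the members than at other open promoters. As the fold follows from the pileup, each carries an exact Poisson 95% interval, which covers counting error only. The members had a median fold of 13.4 (interquartile range, 8.76 to 25.8; range, 5.15 to 104), at a median pileup of 25, compared with 26.3 (16.5 to 40.2) at open promoters of 42% GC or more. The kinds differed. The median was 29.1 (17.1 to 39.4) for island-core members and 11.6 (7.73 to 18.0) for non-island members. Open promoters of 42% GC or more had a median of 27.3 with an island core and 18.0 without. A pileup under 15, where counting error is large, was found at 58 members (21.0%), of which 56 were non-island, compared with 6.44% of open promoters of 42% GC or more. Median peak widths were 962 bp for island-core members, 508 bp for non-island members and 1238 bp for open promoters of 42% GC or more.

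Across the 276 members, the fold had a Spearman correlation of 0.457 with the GC content of the core and 0.283 with that of the whole promoter. Across the 212 non-island members the correlation with core GC content was 0.264, and across the 9838 open promoters of 42% GC or more it was -0.0749. These describe promoters of a single library that share its depth. Of the 67 members with a fold above the 75th percentile 53.7% had an island core, compared with 4.11% of the 73 at or below the 25th. Outside promoters, summits whose 1.1 kb surroundings had a GC content below 42% had a median fold of 8.76 (n = 26464), compared with 10.3 (n = 43084) at or above it.

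**Figure D3:**
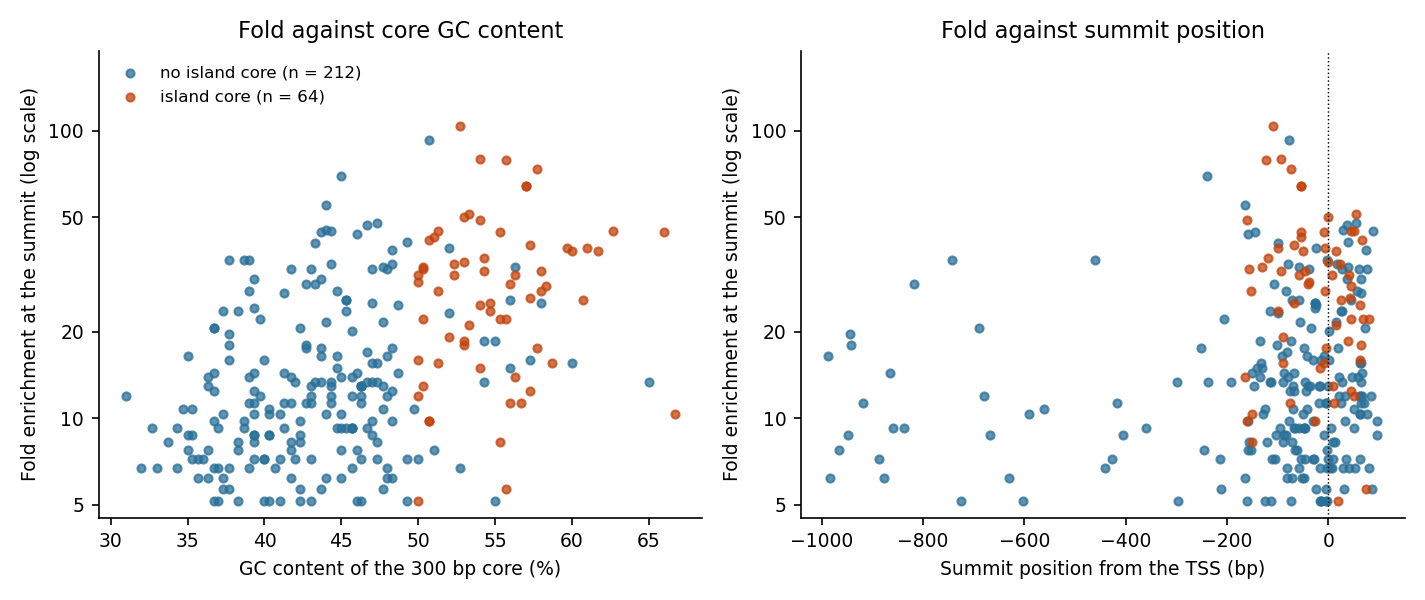
Fold enrichment at the summit (log scale) of each of the 276 members against the GC content of its 300 bp core in percent (left) and against the summit position from the TSS in bp, negative upstream (right). Island-core members, in red, reach 104 and lie within 200 bp of the TSS, whereas non-island members, in blue, have a median of 11.6 and extend to 987 bp upstream.

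With a tie at the last place kept, the 20 highest came to 21, of which 13 had an island core. MRPS30 had the highest fold, 104 (95% counting interval, 89.8 to 119), at a pileup of 200 and higher than 99.9% of all peaks. It was followed by ARMC1, a mitochondrial protein gene without an island core, at 93.3 (80.2 to 108). FH reached 79.9 (67.8 to 93.4) and EXOC4, a subunit of the exocyst that tethers secretory vesicles, reached 79.4 (67.4 to 92.9). DDX18, an RNA helicase gene, had 73.7 (62.1 to 86.8), and the counting intervals of these 3 genes overlapped. MAP3K7CL had a fold of 69.6, and ASDURF and ASNSD1, which share 1 summit, had 64.4.

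The remaining genes of this group had folds from 44.3 to 55.1 with overlapping counting intervals. In descending order they were ARL14EPL (55.1), COMMD8 (51.5), SOGA3 (50.0), H3-3B (49.0), which encodes the replication-independent histone H3.3, SEM1 (47.9), a subunit of the proteasome, ZMYM6 (46.9) and CWC22 (45.3), a splicing factor. ATXN7L3B, EEF1E1 and SH3RF2 had 44.8, and ABCB1, DNAJB4 and ZNF337 had 44.3. EEF1E1 belongs to the aminoacyl-tRNA synthetase complex, ABCB1 encodes the drug efflux pump P-glycoprotein and DNAJB4 encodes a co-chaperone.

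Some other island-core members are given as examples picked after their values were seen, with no count of their functions. CCNA2, which encodes cyclin A2, had a fold of 39.2 and PTTG1, which encodes securin, 41.7. The nucleoporin genes NUP205 and NUP35 had 36.1 and 31.4, and the splicing genes PRPF18 and SLU7 had 32.5 and 29.4. FASTKD1 (42.8), PNPT1 (35.0) and MTRF1 (13.9) encode mitochondrial proteins. DCTN2, a dynactin subunit, had 40.2, and EIF3H, a subunit of the initiation factor eIF3, had 31.4. Only SPATA18 at 5.67 and PCDHGB6 at 5.15 among the 64 had a pileup under 15.

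The members of lowest GC content were of both kinds. USP40, a deubiquitinase gene, had 31.3% GC and a fold of 22.2 (16.1 to 29.8), and its core had 55.7% GC and 21 CG. LRRIQ1 had 31.5% and a fold of 23.7 (17.4 to 31.5), at a core of 37.3% GC, and its summit also lay in a promoter of TSPAN19. API5 had 31.9% at a core of 59.7%. The gene ENSG00000285982 had 31.9% and a fold of 8.24, and SLC7A11 32.1% and a fold of 40.7 (32.3 to 50.7). At the GC threshold, 10 members tied just inside, at 41.91%, with folds from VWC2L at 6.70 to COMMD8 at 51.5 and a median of 37.1. The 8 open promoters just outside, all at 42%, had folds from ERAP2 at 5.15 to ZNF680 at 57.7 and a median of 9.79.

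The window that chose the members limits where their summits could lie, so summit position is given as a description. Of the members, 86.6% (82.0 to 90.4) had their summit within 200 bp of the TSS, compared with 78.5% of open promoters of 42% GC or more, and 88.8% had a peak that spanned the TSS. The share of open GC-poor promoters with a summit within 200 bp depended on the definition, and was 73.9% where the window reached 1 kb downstream as well and 64.1% with the TSS of any transcript. All 64 island-core members had it within 200 bp, as did 82.5% of non-island members. The median summit lay 12.5 bp upstream in island-core members, 48.5 bp in non-island members and 105 bp in open promoters of 42% GC or more. A summit over 500 bp upstream was found at 22 members, all non-island. They included UGT2B7 (987 bp upstream), KMO (866 bp), SLC17A3 (860 bp), TM4SF4 (818 bp) and GPR183 (690 bp), for which the peak need not mark the TSS itself.

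At the edges of the window, the members nearest to being left out were NDUFS4, H3C7, SH3RF2 and VIP, whose summits lay from 97 to 87 bp downstream of the TSS, and UGT2B7. Just outside were CFAP299 with a fold of 39.7, CREBZF with 31.4, DDX60 with 35.0, DTD2 with 26.8 and FRRS1 with 15.5, whose summits lay from 100 to 112 bp downstream. In all, 74 closed GC-poor promoters (4.48%) had a summit within 500 bp outside the window, of which 55 lay downstream. At the lower limit of the list, 13 members had a pileup of 9, a fold of 5.15 (2.64 to 9.32).

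Both strands were searched for motifs, near the summit (at most 50 bp away) and over the whole promoter. The AP-1 motif lay within 50 bp of the summit in 21 members (7.61%; 4.77 to 11.4), all of them non-island, for which the share was 9.91% (6.24 to 14.7). The whole motif had to lie within the distance allowed. The share of members depended on that distance, and was 12.0% within 100 bp and 3.26% within 25 bp. It was 12.7% with the TSS of any transcript. None of the 64 island-core members had it, which allows a share of up to 4.69% by a limit of 3 counts and up to 5.60% by the exact interval. The share was 1.46% at open promoters of 42% GC or more and 19.0% at GC-poor summits outside promoters. Among open promoters of 42% GC or more without an island core it was 5.70% (4.38 to 7.27), an interval that overlapped that of non-island members. A scrambled motif (TAGCTCA) was found at 2.36% (0.770 to 5.42) of non-island members and at 1.48% of GC-poor summits outside promoters.

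The 21 members with the AP-1 motif at the summit had a median fold of 13.4. The middle of the nearest motif lay from 0 to 43 bp from the summit, with a median of 25 bp. Measured by the middle, 11 lay within 25 bp, more than when the whole motif had to lie within it. The 10 of highest fold were ARL14EPL (55.1), C4orf51 and DHRS9 (both 35.6), IFI16 (33.0), GPR183 (20.6), VWA5A (20.1), C3AR1 and F2RL2 (both 16.5), SERPINB7 (16.0) and ARL14 (14.4). IFI16 encodes a sensor of foreign DNA, GPR183 an oxysterol receptor that guides immune cells and C3AR1 the receptor for complement fragment C3a. The other 11 had folds from 6.18 to 13.4 and included GBP2 (12.4), MMP13 (9.28), GJA1 (8.76), which encodes connexin 43, and MMP7 (6.18). In VWA5A the middle of the motif was the summit base. Among the 21, summits over 500 bp upstream of the TSS were those of GPR183 (690 bp), TMEM156 (561 bp), ENSG00000257065 (591 bp), MROH2B (888 bp) and ENSG00000281613 (631 bp). The remaining summits lay at most 460 bp from the TSS.

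Over the whole promoter, the AP-1 motif was present in 26.4% (20.6 to 32.9) of non-island members, compared with 17.1% (15.3 to 19.0) of closed promoters without an island core and 12.9% of all canonical promoters. The scrambled motif was found in 13.7% and 12.9% of the same groups. Of GC-poor promoters without an island core, 10.4% (8.92 to 12.1) were open with no AP-1 motif, 15.7% (11.8 to 20.3) with 1 and 27.3% (13.3 to 45.5) with 2 or more, the last being 9 of 33 promoters. The ETS motif CCGGAAGT, which contains a CG, was present in 4.72% of non-island members and 0.557% of closed promoters without an island core, or 10 and 9 promoters. Several other motifs hardly separated open from closed. HNF1, a factor of kidney and liver, was searched as the short string GTTAAT, which was in 50.9% against 52.0%. TEAD (ACATTCC) was in 14.6% against 15.7%, RUNX (TGTGGTT) in 22.6% against 20.3% and C/EBP (TTGCNNAA) in 58.0% against 54.1%. GTTAAT was in 24.2% of all canonical promoters. Longer HNF1 sites were not searched, so HNF1 binding was not tested.

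The CCAAT box was found at 21.9% (14 of 64) of island-core members, 20.8% of non-island members and 19.8% (19.0 to 20.6) of open promoters of 42% GC or more, and at 13.6% (13.2 to 14.1) of GC-poor summits outside promoters. SP/KLF was found at 4.69% of island-core members, 0.472% of non-island members and 15.3% of open promoters of 42% GC or more. The RUNX motif and the glucocorticoid receptor hexamer AGAACA lay at 5.66% and 10.4% of non-island summits, compared with 0.935% and 2.23% at open promoters of 42% GC or more. These 2 shares at non-island members were near those of GC-poor summits outside promoters, 7.21% and 8.27%. The NF-kB motif, in the form searched, was at none of the 276 summits. This allows a share of up to 1.09% by a limit of 3 counts and up to 1.33% by the exact interval. That form was also rare elsewhere, at 0.203% of open promoters of 42% GC or more and 0.283% of GC-poor summits outside promoters. Both shares lie under these limits, so its absence does not set the members apart. Sites that differ from the form searched were not counted, so NF-kB sites in general were not tested. Motifs differ in base composition, which alone changes how often they occur in GC-poor sequence, and its part in these shares was not tested.

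**Figure D4:**
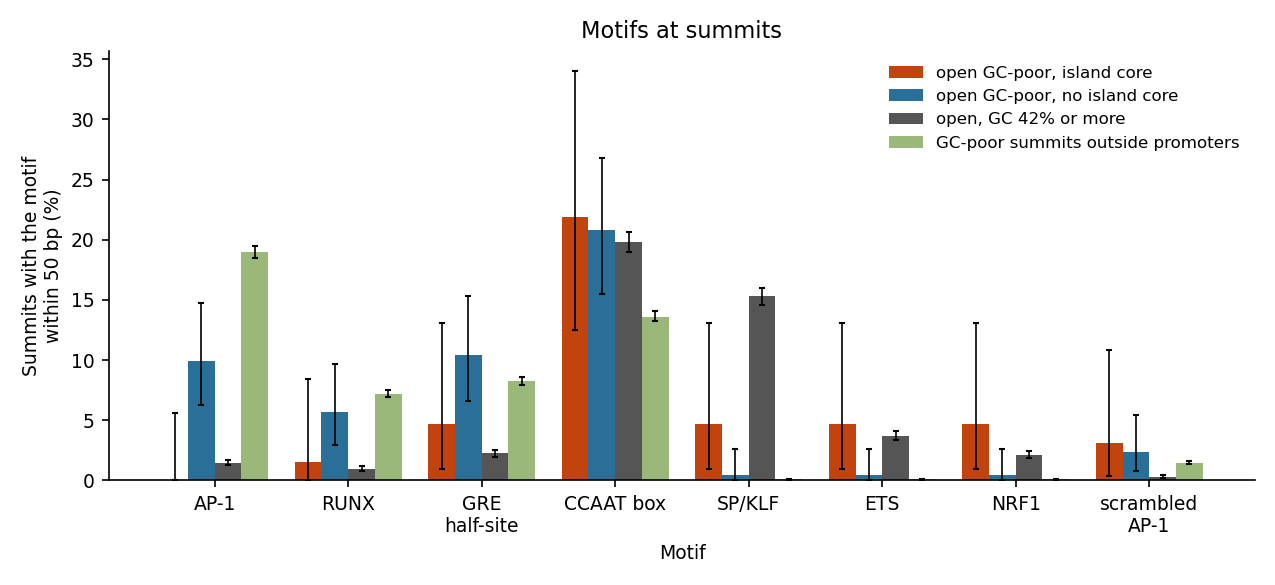
Share of summits in percent with a motif within 50 bp, with exact 95% intervals, in island-core members (n = 64), non-island members (n = 212), open promoters of 42% GC or more (n = 9838) and GC-poor summits outside promoters (n = 26464). AP-1 stands at 0, 9.91, 1.46 and 19.0% in that order, whereas the CCAAT box lies between 13.6 and 21.9% in every group.

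A TATA box, TATAAA starting 40 to 20 bp upstream of the TSS, was present in 21 members (7.61%; 4.77 to 11.4), 20 of them non-island. The share was 10.9% (9.44 to 12.5) at closed GC-poor promoters, 1.64% at open promoters of 42% GC or more and 3.98% at all canonical promoters. Among GC-poor promoters without an island core, 10% with a TATA box and 11.8% without were open. With a tie at the last place, the 5 TATA-box members of highest fold were H3-3B (49.0), TM4SF4 (29.4), CXCL8 (24.2), ANXA1 (18.0), which encodes the anti-inflammatory annexin A1, and a tie of KMO and TPH2 (both 14.4), enzymes of tryptophan metabolism.

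Families are given by how many of their GC-poor promoters were open, beside 14.3% of all GC-poor promoters. None of 337 olfactory receptor promoters, 19 bitter taste receptor promoters, 15 type I interferon promoters, 20 defensin promoters or 12 keratin promoters was open, and 1 of 50 for keratin-associated proteins was (KRTAP4-6, fold 8.76). Of these closed promoters, 75 of the olfactory receptors and 14 of the bitter taste receptors had a near-identical copy elsewhere in the genome. The same held for 3 of the type I interferons, 9 of the defensins, 4 of the keratins and 13 of the keratin-associated proteins. Reads that match several places get a low mapping quality, and reads of low mapping quality had been removed. Of the 254 GC-poor promoters with such a copy 1 was open (0.394%), whereas 16.4% of the 1673 without one were. The part of read mapping in these shares was not tested. By the limit of 3 counts, a count of 0 allows an open share of up to 0.890% for the olfactory receptors and of up to 25% for the keratins. Both limits include the promoters with a near-identical copy.

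Interferon-induced and guanylate-binding proteins stood at 5 of 11, namely IFI16 (33.0), IFIT2 (13.4), GBP2 (12.4), GBP1 (9.79) and IFI44 (9.28). Matrix metalloproteinases stood at 3 of 9, namely MMP10 (13.9), MMP13 (9.28) and MMP7 (6.18). Chemokines had 1 of 7 (CXCL8) and interleukins and their receptors 2 of 14, which were IL18 (16.5) and IL7R (11.9), both families being at the overall share of 14.3%. Of 4 toll-like receptors TLR3 (8.76) and TLR10 (7.21) were open, and of 3 annexins ANXA1 (18.0) and ANXA13 (6.70). Zinc finger genes named ZNF had 10 of 20 open, 6 with an island core, led by ZNF337 (44.3), ZNF658 and ZNF724 (both 25.2), ZNF43 (16.0) and a tie of ZNF484 and ZNF772 (both 14.9).

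Histone genes, as matched by the start of their symbols, had 6 of 14 open, and these 6 had no island core. The folds were 13.4 for H4C3, 12.9 for H3C4, 11.3 for H3C6, 9.79 for H3C7, 9.28 for H3C10 and 7.73 for H1-3. H3-3B, with an island core and a fold of 49.0, was not matched and is not in this count. Cadherins and protocadherins had 11 of 54. PCDHB genes had 5 of 16, PCDHG genes 5 of 19 and PCDHA genes none of 13. Their folds ran from 5.15 to 11.3, with PCDHB3 the highest. Solute carriers had 6 of 38 (15.8%), near the overall share, led by SLC7A11 (40.7), SLC36A1 (25.8), SLC2A12 (11.9), SLC17A3 (9.28) and a tie of SLC9A9 and SLC16A4 (both 7.21). Of the GPR receptors, GPR183 had 20.6 and GPR85 had 18.0. Cytochromes P450 had none of 8 and the alcohol dehydrogenase and AKR1 genes none of 10. Of 39 families, 22 held a member.

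Other families with a single member were ABCB1 of 7 ABC transporters, UGT2B7 (16.5) of 9 UDP-glucuronosyltransferases, SERPINB7 (16.0) of 7 serpins, TRIM22 (11.9) of 17 tripartite motif genes and CLEC2B (8.24) of 21 lectins. Of the closed tripartite motif promoters, 12 had a near-identical copy. MRPS30, PSMC2 (27.8), a proteasome ATPase, EIF3H (31.4) and NDUFS4 (8.76), of respiratory complex I, came from families with 1 or 2 GC-poor promoters, since most of their genes had GC-richer ones. No cytosolic ribosomal protein gene had a GC-poor promoter.

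3 lists of genes were compiled after the members had been seen, so their counts are descriptions. Of 14 GC-poor promoters of inflammatory secreted and surface proteins, 10 were open, beside 14.3% of all GC-poor promoters. Of the 20 with GC-richer promoters 10 were open, beside 57.3% of all promoters of 42% GC or more. INHBA, which encodes the activin A subunit, had 29.4 (22.3 to 38.0), CXCL8 24.2 (17.9 to 32.1), IL18 16.5, MMP10 13.9, VCAM1, a leukocyte adhesion molecule, 12.4, IL7R 11.9, TNFAIP6 and MMP13 9.28, MMP7 6.18 and TNIP3 5.15 (2.64 to 9.32). CCL20, MMP12, MMP3 and SELE were closed. A TATA box was present in 6 of the 10 and an AP-1 motif somewhere in the promoter in 6, as it was in 3 of the 4 closed ones.

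Of 16 GC-poor promoters of interferon-stimulated genes, 10 were open, beside 14.3% of all GC-poor promoters. Their folds ran from 6.18 (3.34 to 10.7) for RSAD2 to 33.0 for IFI16. Of the 26 GC-richer ones 17 were open, beside 57.3% of all promoters of 42% GC or more. The ISRE core, a motif added after the data were seen, was found in the 300 bp core of 6 of the 10 open and 4 of the 6 closed ones. Over all promoters it was present in 7.61% of members, 7.03% of closed GC-poor promoters and 3.27% of canonical promoters. SAMD9 (22.2) and SAMD9L (6.70) encode antiviral proteins, and TRIM22 had 11.9.

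Of 14 GC-poor promoters of kidney tubule genes, 6 were open, beside 14.3% of all GC-poor promoters. Of the 26 with GC-richer promoters 5 were open, beside 57.3% of all promoters of 42% GC or more. SPP1, which encodes osteopontin, had the highest fold, 33.5 (25.9 to 42.6). UGT2B7, a glucuronidation enzyme, had 16.5 (11.4 to 23.2), TINAG, which encodes a tubular basement membrane antigen, 11.9 (7.62 to 17.7), and both EGF and SLC17A3, a urate transporter, 9.28 (5.62 to 14.5). KLB, which encodes the FGF co-receptor beta-klotho, had 5.67 (2.99 to 9.99). The summits of UGT2B7, TINAG and SLC17A3 lay 987, 680 and 860 bp upstream of the TSS.

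The label of the cell line was checked against markers. Of the 10 renal markers, 5 had an open canonical promoter, beside 52.9% of all canonical promoters, so this count does not set the renal markers apart. The open ones were PAX8 (31.9), MME (28.3), CDH2 (25.8), PAX2 (22.7) and EPAS1 (21.6). None of the renal markers was GC-poor, so the members themselves do not bear on this check. VIM had its nearest summit 375 bp from the TSS, outside the window. LHX1, CA9 and GGT1 held none. Of 15 markers of other cell types 3 were open, which were CD14 (6.70), SNAP25 (19.6) and PMEL (13.4). The 5 GC-poor ones, PTPRC and CD3E of leukocytes, ALB of hepatocytes, MLANA of melanocytes and MYH2 of muscle, were all closed.

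The surroundings of the members also held more peaks than those of closed GC-poor promoters. No other summit lay within 50 kb of the TSS for 7.97% (5.06 to 11.8) of members, 30.5% (28.3 to 32.8) of closed GC-poor promoters and 4.44% of open promoters of 42% GC or more. The median distance from the TSS to the next summit outside the promoter was 5804 bp for members and 23435 bp for closed ones. Across the 276 members, the fold and the number of neighbouring summits had a Spearman correlation of 0.0597. Summits of 47 members (17.0%) also lay in a promoter of another gene. This held for 31.2% of island-core and 12.7% of non-island members. Among chromosomes, the open share ran from none of 6 on chromosome 22 and 4.76% (2.56 to 8.01; 13 of 273) on chromosome 11 to 24.3% (16.4 to 33.7) on chromosome 2.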

How the data were processed

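ATAC-seq of 1 library of 786-O cells with an empty vector was analysed, from a peak list in hg38 coordinates. The study's methods state that the authors trimmed reads with fastp, aligned them with Bowtie2 (2.3.4.3 in the submitters' processing notes), removed mitochondrial reads and those of mapping quality under 30, used sambamba to drop duplicates, and ran MACS2 (2.2.6 in those notes) without a local background. A shift of reads for the transposase is not given in the sources used here. The deposited ratio is the fold enrichment of the summit. The deposited −log10 p-value and −log10 q-value and the deposited score served only for filtering, and no p-value is reported. The other deposited column used is the summit offset. The lowest of 88676 scores was 52, so the list had been filtered. Peak names are tagged as wild type, and the label was followed.

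Folds equal the summit pileup plus 1 over the background of 0.941 plus 1, which gave whole pileups to within 0.0000183. The total read number is unknown. Promoters and sequences came from the hg38 reference and GENCODE release 44. A near-identical copy was an alignment of at least 550 bp with at most 5% divergence (minimap2 2.31). Python 3.11.15, numpy 2.4.6, pandas 2.3.3, scipy 1.17.1, pyfaidx 0.9.0.4 and matplotlib 3.10.9 were used, and the functions were tested on simulated data. Shares carry exact Clopper-Pearson 95% intervals for counting error only. Promoters of 1 library are not replicates, so no test was made. Named were the 20 members of highest fold, the 5 of lowest GC content, those nearest each threshold, family members (all up to 5, otherwise the 5 highest), the 10 highest with AP-1 at the summit and 5 with a TATA box. The members and lists were chosen with earlier results of these data known. Some genes and 1 sequence are not reported here. Alternative scores, windows, GC limits and TSS sets were tried.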

Additional observations from a re-analysis of the deposited data

Results flagged for a closer look

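Chromosome X lies outside the definition of the members. There, 15 of 100 GC-poor canonical promoters held a summit (15%; 8.65 to 23.5), beside 14.3% (12.8 to 16.0) on chromosomes 1 to 22. Their median fold was 14.4 (range, 7.73 to 23.2), and SPIN4 (23.2), KLHL4 (22.7) and SMIM10 (22.2) were the highest.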

How the results depend on the processing

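With 276 members as the starting count, the number was 162 at a score above 200, 135 in promoters from 500 bp upstream to 100 bp downstream, 158 below 40% GC, 601 below 45% GC, 114 by the GC content of the core and 981 with the TSS of any transcript, each beyond a factor of 1.5. The open share, 14.3%, was 11.7% at a score above 100, 8.41% above 200, 8.74% in the shorter window, 18.5% with any overlap, 11.3% and 20.3% below 40 and 45% GC, 8.49% by the core and 16.4% without near-identical copies. Split by island core, after the data were seen, it was 64.6% with and 11.6% without. The median fold, 13.4, was 16.0 and 23.4 at the higher scores, 10.3 in the shorter window, 11.3 and 19.1 below 40 and 45% GC and 9.79 by the core. The AP-1 share at summits, 7.61%, was 11.8% in the window of 1 kb to both sides, 11.4% by the core, 12.7% with any transcript, 12.0% and 3.26% within 100 and 25 bp of the summit, and 0% with an island core. The share with a summit within 200 bp of the TSS, 86.6%, was 91.4% at a score above 200, 94.1% in the shorter window, 73.9% with the longer window and with any overlap, 90.5% below 45% GC, 72.8% by the core and 64.1% with any transcript. Why each moved was not tested. Leaving out summits shared with a canonical promoter of 42% GC or more moved none of the 5 results beyond its interval. No paired analysis was possible because only 1 library was analysed. At the lowest pileup, 9, the fold of 5.15 had a counting interval of 2.64 to 9.32.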

Other observations

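A closed canonical promoter did not mean that a gene had no open start. Of the 1651 closed GC-poor canonical promoters, 169 (10.2%; 8.82 to 11.8) belonged to genes with a summit at the promoter of another transcript, and for 128 of the 169 that promoter had a GC content of 42% or more. The single-exon genes differed too. The canonical transcript had 1 exon in 8.33% (5.36 to 12.2) of members, 22.8% (20.8 to 24.9) of closed GC-poor promoters and 2.09% of open promoters of 42% GC or more. For 214 members RefSeq promoters of the same symbol were at hand, and 207 of them placed the TSS within 50 bp of the canonical one used here.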
